A study of Mus musculus with 11 samples.

Results

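Cells 5 and 10 of a single-cell Hi-C series were the cells richest in local contacts, and they are set here against cells 7 and 9, which held more contacts across very long distances of the same chromosome. The 4 cells belong to a series of 11 samples of mouse T helper 1 (Th1) cells, 10 single cells and 1 ensemble of many. The restriction enzyme was Bgl II for the ensemble and 9 single cells, these 4 among them, and Dpn II for 1 cell. The Dpn II cell and a pool of single cells were not used here. The 4 cells share all of their labelled conditions: CD4+ Th1 cells from spleens of male C57BL/6 mice, stimulated with anti-CD3, selected with anti-CD4 beads, expanded in culture with IL-2, and cut with Bgl II. No agent, genotype or time point separates them, and the labels do not say which animal or culture a cell came from. Hi-C holds no expression, so the labelled cell type could not be checked against markers.

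Hi-C cuts cross-linked chromatin with a restriction enzyme and ligates ends held near each other, so each contact joins a pair of genomic positions. A cis contact joins positions of 1 chromosome, and a trans contact joins different chromosomes. In interphase a chromosome fills its own territory. Along it, domains are stretches whose positions meet each other more than they meet their neighbours, and compartments are classes of chromatin, broadly active or inactive, whose members meet preferentially over long distances. A compact chromosome brings its far parts together, while fewer contacts between far parts go with an elongated or partitioned shape, though a contact map of 1 cell records only some of the contacts present. Autosomes have 2 copies in these cells and their contacts are summed, whereas X has 1 copy.

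The cells were chosen by 2 measured values, shares of the autosomal cis contacts. Cells 5 and 10 had over 49% of these contacts under 1 Mb and under 8% beyond 50 Mb, and cells 7 and 9 had about 10 to 11% beyond 50 Mb. In the full files the share under 1 Mb was 49.75% in cell 5, just inside the limit, and 47.98% in cell 9, just outside it. The share beyond 50 Mb was 7.77% in cell 5, just inside its limit, and 9.89% in cell 9. Cells 1 and 6 also lay under 8% beyond 50 Mb, at 4.15% and 7.15%, but had 41.5% and 46.6% of contacts under 1 Mb. Every distance measure on the autosomes therefore describes the choice. Trans contacts, the use of domains at matched distance, the pairing of compartment classes and the X chromosome did not enter it.

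The files held 19372 contacts for cell 5, 11156 for cell 10, 13530 for cell 7 and 11710 for cell 9, within the range of 11156 to 30665 over the 9 Bgl II cells. Each cell was thinned at random to 11156 contacts, of which 8828, 8888, 9394 and 9226 were autosomal cis contacts in cells 5, 10, 7 and 9. Values below stand in this order of cells. Any pair of the 4 cells shared 1 to 2 identical contacts. Brackets give 95% Wilson intervals, which cover counting error only. With 2 cells against 2 the smallest two-sided exact permutation p is 0.333, so no test was made. The spread of the 9 Bgl II cells, thinned alike, is given as mean ± SD.

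At equal depth, cell 10 was the more extreme of the pair. Cell 5 stood close to cells 7 and 9 from 20 kb to 2 Mb and from 12 to 50 Mb. The share under 1 Mb was 49.4% [48.3 to 50.4] in cell 5, 57.9% [56.9 to 59.0] in cell 10, and 46.4% [45.4 to 47.4] and 47.95% [46.9 to 48.97] in cells 7 and 9. The 9 cells had 46.2% ± 6.09 (SD, n = 9), so only cell 10 lay more than 1 SD above their mean, and the intervals of cells 5 and 9 overlapped. The ensemble, which was not thinned, had 33.3%, made up of 7.52% under 20 kb and 25.8% from 20 kb to 1 Mb.

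Splitting the local contacts by distance separated the pair. Under 20 kb, a distance of a few restriction fragments, cell 5 had 19.4% [18.6 to 20.2], the highest of the 9 cells, against 17.6% [16.9 to 18.4], 16.7% [16.0 to 17.5] and 17.1% [16.4 to 17.9]. From 20 kb to 1 Mb, the scale of domains, cell 5 had 30.01% [29.1 to 31.0], which lay between cell 7 at 29.7% [28.8 to 30.6] and cell 9 at 30.8% [29.9 to 31.8]. Cell 10 had 40.3% [39.3 to 41.3] in that band, where the 9 cells had 29.5% ± 5.33 (SD, n = 9). Of the cis contacts of at least 20 kb, 37.2% lay under 1 Mb in cell 5, the same as the 37.2% in cell 9, against 48.9% in cell 10 and 35.7% in cell 7. In the full files the share was 37.8% in cell 5 and 37.2% in cell 9. Cell 5 ranked 2 of 9 in local share with contacts under 20 kb and without them. Set against cell 9, the higher local share of cell 5 thus lay mostly in contacts under 20 kb, and that of cell 10 at the scale of domains.

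Within the band of domains, the surplus of cell 10 lay mostly at its longer distances. From 100 kb to 1 Mb cell 10 had 26.5% [25.6 to 27.5] against 18.2% [17.4 to 19.02] in cell 5, 18.02% [17.3 to 18.8] in cell 7 and 19.5% [18.7 to 20.3] in cell 9. From 20 to 100 kb the 4 cells had 11.8%, 13.8%, 11.7% and 11.3%. The surplus of cell 10 continued to 2 Mb, with 6.09% of contacts from 1 to 2 Mb against 4.55%, 4.12% and 4.78%, and had turned by 12 to 50 Mb, with 17.7% against 23.7%, 24.8% and 23.4%. From 2 to 12 Mb cell 5 was the highest of the 4, at 14.8% [14.07 to 15.55]. Cell 10 had 13.1% there, cell 7 had 13.0% [12.3 to 13.66] and cell 9 had 14.0%. The median cis distance was 1.07 Mb in cell 5, 0.471 Mb in cell 10, 1.79 Mb in cell 7 and 1.31 Mb in cell 9.

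**Figure D1:**
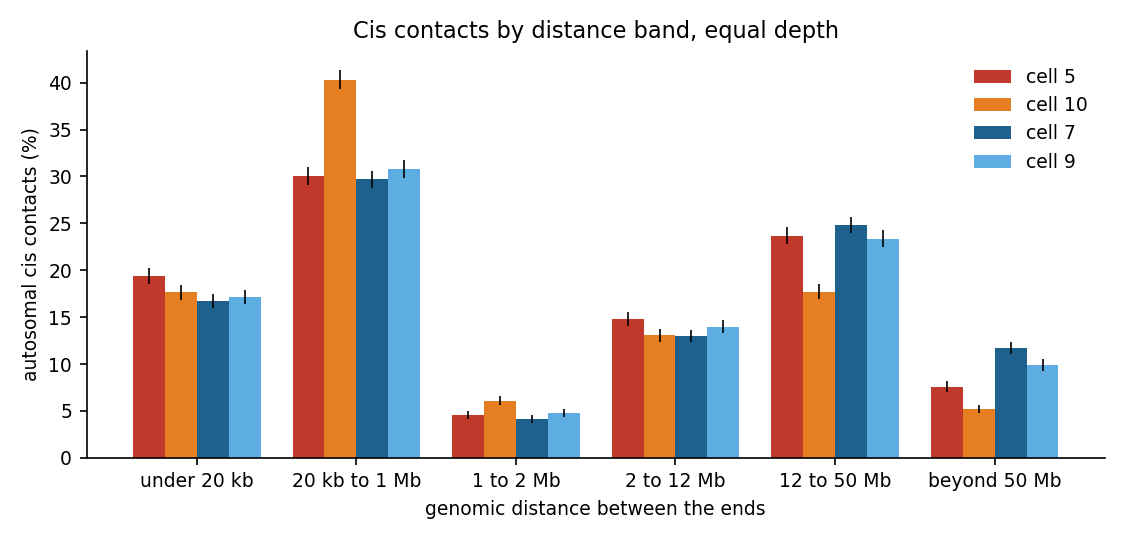
Share of autosomal cis contacts (percent, y axis from 0) in 6 bands of genomic distance (x axis) in cells 5, 10, 7 and 9, each thinned to 11156 contacts; bars are single cells and error bars are 95% Wilson intervals. Cell 10 stands apart at 20 kb to 1 Mb with 40.3%, cell 5 is highest under 20 kb with 19.4%, and both are lowest beyond 50 Mb.

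Very long contacts were fewer in both cells 5 and 10, and fewest in cell 10. Contacts beyond 50 Mb made up 7.58% [7.04 to 8.15] and 5.18% [4.73 to 5.66] in cells 5 and 10, against 11.7% [11.02 to 12.3] and 9.90% [9.30 to 10.5] in cells 7 and 9. The 4 intervals did not overlap. The 9 cells had 9.46% ± 3.71 (SD, n = 9), and of the 4 values that of cell 10 lay more than 1 SD from this mean. Of the contacts of at least 1 Mb, 15.0%, 12.3%, 21.8% and 19.01% lay beyond 50 Mb, a value that follows from the 2 shares used to choose the cells. Contacts that spanned more than 0.5 of their chromosome made up 3.21% [2.86 to 3.59], 2.49% [2.18 to 2.83], 5.98% [5.52 to 6.48] and 4.85% [4.43 to 5.30]. Contacts that joined the first 20 Mb of a chromosome to its last 20 Mb numbered 43 in cell 5 and 32 in cell 10, against 88 in cell 7 and 60 in cell 9. As shares these were 0.487% [0.362 to 0.655], 0.360% [0.255 to 0.508], 0.937% [0.761 to 1.15] and 0.650% [0.506 to 0.836]. The interval of cell 9 overlapped those of cells 5 and 10.

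Chromosome by chromosome, the higher local share belonged to cell 10 everywhere and to cell 5 on some chromosomes. Both cells 5 and 10 lay above both cells 7 and 9 on 10 of 19 chromosomes (52.6% of those measured, a share that the choice of cells itself shaped), and no chromosome had the opposite order. Without cell 5 the count was 19. Cell 10 lay above cells 7 and 9 on all 19 and also above cell 5 on all 19, while cell 5 lay above both on 10 and below both on 3. With contacts under 20 kb left out, cell 5 lay above both on 9 chromosomes and below both on 7, and cell 10 still above on 19. On 9 chromosomes the interval of cell 10 lay above those of cells 7 and 9, and on none did that of cell 5. A chromosome gave 187 to 805 cis contacts in a cell, so its share carries a counting error of several points.

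Chromosomes 9, 16 and 4 had the widest gap in local share between the pairs. On chromosome 9 the share under 1 Mb was 58.2% [53.3 to 62.9] in cell 5, 58.6% [53.9 to 63.1] in cell 10, 45.0% [40.6 to 49.5] in cell 7 and 49.9% [45.5 to 54.4] in cell 9. Chromosome 9 also had the highest local share of any chromosome in cell 5, which stood beside cell 10 there. Chromosome 16 had 52.6%, 61.8%, 47.1% and 47.4%, and chromosome 4 had 49.3%, 51.8%, 45.4% and 43.1%. Chromosome 17 ran another way, since cell 7 had 57.4% there, its highest value, above cell 5 at 51.5% and near cell 10 at 59.7%. Chromosome 1 was where cell 5 was least local, at 43.6%, beside 42.0% and 44.2% in cells 7 and 9, while cell 10 kept 58.5%.

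The share beyond 50 Mb was lower in both cells 5 and 10 on most chromosomes. Both cells 5 and 10 lay below both cells 7 and 9 on 14 of 19 chromosomes (73.7%), and chromosome 19, which is little longer than 50 Mb, had no such contact in any of the 4 cells. Chromosome 4 had the widest gap, with 26 of 586 cis contacts in cell 5 (4.44%) and 47 of 571 in cell 10 (8.23%), against 82 of 562 in cell 7 (14.6%) and 91 of 569 in cell 9 (16.0%). Chromosome 17 had 9 of 328 (2.74%), 3 of 303 (0.990%), 26 of 333 (7.81%) and 28 of 337 (8.31%). Chromosome 3 had 7.52%, 3.68%, 16.5% and 12.03%. On these 3 chromosomes the far parts met least in cells 5 and 10 together, while chromosome 1 parted cell 10 from the other 3, with 24 contacts beyond 50 Mb (3.05%) against 104 in cell 5 (12.9%), 122 in cell 7 (16.6%) and 124 in cell 9 (15.8%).

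Distance was also scaled to the length of the chromosome. The share of contacts that spanned more than 0.5 of the chromosome was lower in both cells 5 and 10 on 15 of 19 chromosomes (78.9%). Chromosome 17 had the widest gap, with 3.35%, 0.990%, 9.31% and 8.61%, followed by chromosome 4, with 0.853%, 1.75%, 6.23% and 7.21%, and chromosome 18, with 4.26%, 5.08%, 8.29% and 10.2%. On chromosome 17 the local share of cell 7 lay between those of cells 5 and 10, while its far parts met more often than in either, so the 2 measures did not move together chromosome by chromosome. With other random draws or without thinning the count was 13 to 15, against 12 to 14 for the share beyond 50 Mb and 11 to 14 for the share under 1 Mb, so the measures had no settled order. Chromosome 12 alone had the opposite order, with 4.81% and 3.77% in cells 5 and 10 and 3.15% and 3.07% in cells 7 and 9. The chromosomes' shares beyond 0.5 of the length correlated at r = 0.65 (rho = 0.67) between cells 5 and 10 and at r = 0.60 (rho = 0.63) between cells 7 and 9. Across the 4 combinations of a cell from each pair, r was 0.42, 0.20, 0.44 and 0.27. Other measures gave no such likeness within pairs: for the share under 1 Mb, r was 0.45 between cells 5 and 10 and 0.53 between cells 7 and 9, but 0.75 between cells 10 and 9, and for the trans share it was 0.26 and 0.78, with 0.44 to 0.55 between cells of different pairs. These are descriptions over 19 chromosomes, which share a cell and differ in length.

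The median cis distance, which mixes both ends of the range, was lower in cells 5 and 10 on 11 of 19 chromosomes (57.9%). It was lower than in cells 7 and 9 on all 19 in cell 10, which is also the count without cell 5, and on those same 11 in cell 5. Chromosome 4 had medians of 1.07, 0.781, 2.43 and 2.73 Mb, and chromosome 16 had 0.559, 0.348, 1.48 and 1.58 Mb. Cell 5 had its longest median on chromosome 1, at 2.88 Mb, close to 3.88 and 3.11 Mb in cells 7 and 9, where cell 10 had 0.492 Mb. Within each cell shorter chromosomes were more local, with r between the share under 1 Mb and chromosome length of −0.57 (rho = −0.55), −0.42 (rho = −0.51), −0.58 (rho = −0.55) and −0.62 (rho = −0.47), each over 19 chromosomes of 1 cell.

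**Figure D2:**
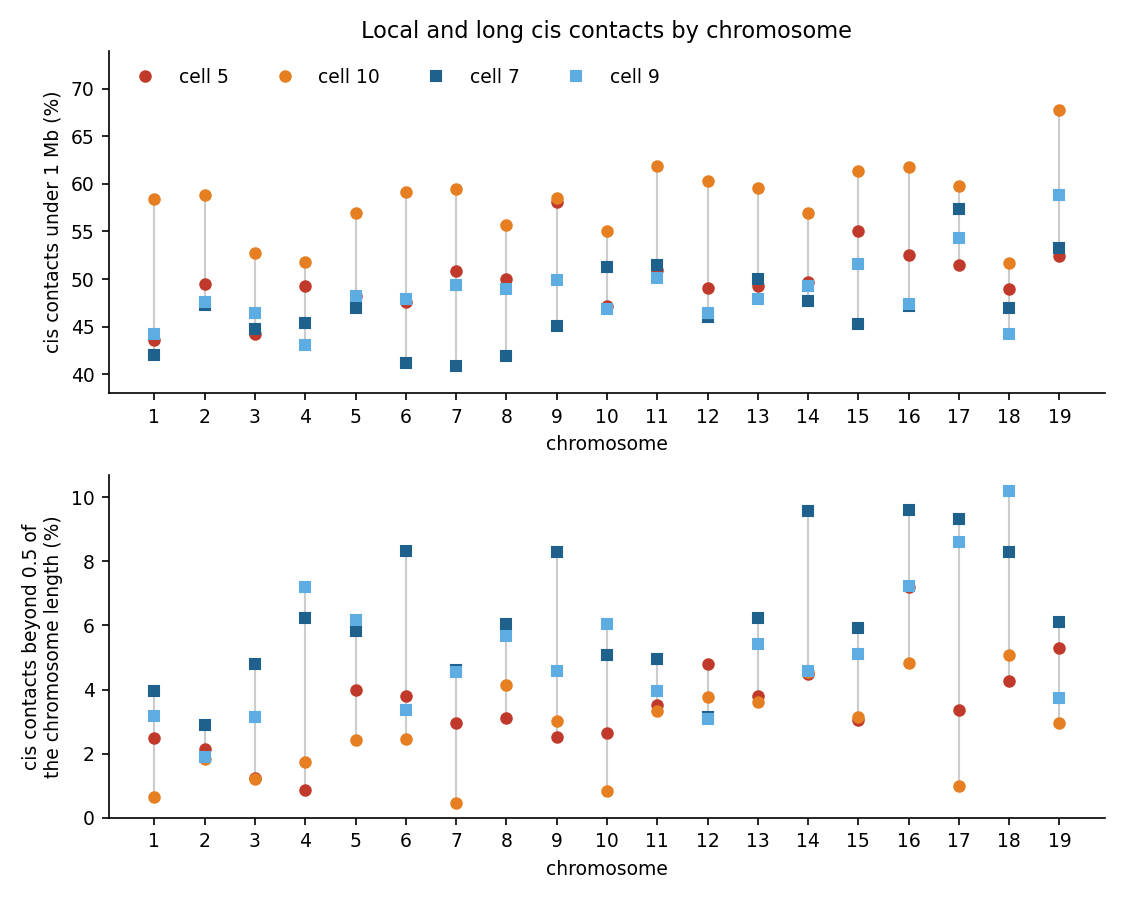
Share of cis contacts under 1 Mb (upper panel, percent) and beyond 0.5 of the chromosome length (lower panel, percent) on chromosomes 1 to 19 (x axis), 1 point for each of cells 5 and 10 (circles) and 7 and 9 (squares) at equal depth; grey lines join the 4 values of a chromosome. Cell 10 lies above cells 7 and 9 on all 19 chromosomes in the upper panel, and both circles lie below both squares on 15 chromosomes in the lower panel, with chromosome 12 the other way.

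The X chromosome, which the choice of cells did not use and which has 1 copy, gave the same order for its longest contacts. Contacts beyond 50 Mb were 8 of 179 X cis contacts in cell 5 (4.47% [2.28 to 8.57]) and 14 of 227 in cell 10 (6.17% [3.71 to 10.1]), against 25 of 206 in cell 7 (12.1% [8.36 to 17.3]) and 31 of 196 in cell 9 (15.8% [11.4 to 21.6]). The interval of cell 7 overlapped those of cells 5 and 10, and that of cell 9 lay above both. For local contacts X followed cell 10 alone: the share under 1 Mb was 49.7% [42.5 to 57.0], 62.6% [56.1 to 68.6], 46.1% [39.4 to 52.9] and 50% [43.1 to 56.9]. Cell 5 thus fell between cells 7 and 9 on X, and cell 10 was the highest of the 9 cells, whose X share was 47.1% ± 8.47 (SD, n = 9).

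Along the autosomes, the higher local share of cell 10 was spread over most windows. In 10 Mb windows with at least 20 cis ends in each of the 4 cells, the share of cis ends in contacts under 1 Mb was above both cells 7 and 9 in 189 of 245 windows for cell 10 and in 104 for cell 5. Both cells 5 and 10 lay above in 88 windows (35.9%), found on 18 chromosomes, and both lay below in 9 windows (3.67%). Without cell 5 the count above was 190, and without cell 9 it was 142. The count below was 15, 67, 26 and 23 without cells 5, 10, 7 and 9. The window medians were 50%, 58.1%, 45.6% and 47.3%.

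The windows with the widest gaps were picked from 245 on the measure that the choice of cells used, and are given as description. In mm9, the window chr9:40000001-50000000 had 63.9% and 64.8% in cells 5 and 10 against 36.8% and 37.0% in cells 7 and 9, from 76 to 105 cis ends a cell. A second chromosome 9 window, chr9:90000001-100000000, had 57.4%, 60.0%, 35.1% and 39.7%, so 2 of the 5 widest gaps lay on the chromosome with the widest gap. The others were chr7:30000001-40000000 with 62.2%, 64.3%, 42.9% and 40.0%, chr1:190000001-197189714 with 63.0%, 63.5%, 43.3% and 46.4%, and chr6:120000001-130000000 with 51.7%, 58.7%, 36.4% and 36.4%. In the other direction, chr4:120000001-130000000 had 37.0% and 39.7% in cells 5 and 10 against 52.9% and 50.7% in cells 7 and 9. The next were chr14:80000001-90000000 with 31.6%, 35.0%, 42.7% and 50%, and chr10:40000001-50000000 with 38.8%, 44.3%, 57.6% and 51.2%. Each of these values rests on at most 105 ends, which are paired within contacts. Extremes picked from many windows cannot show that a difference is particular to a window. No mm9 gene annotation was used here, so the genes in these windows are not named.

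Compartment classes were called on the ensemble in 1 Mb bins: class 1, the class denser in ensemble fragment ends, held 937 of 2368 autosomal bins (39.6%), and class 2 the rest. Cis ends in class 1 were in local contacts more often than those in class 2 in each of the 4 cells. Of cis ends in class 1, 57.4%, 64.7%, 54.4% and 55.95% lay in contacts under 1 Mb, and of those in class 2, 43.3%, 52.3%, 41.0% and 42.7%. The class difference was 14.1, 12.4, 13.4 and 13.3 points, against 12.5 ± 1.29 points (SD, n = 9), so the higher local share of cell 10 lay in both classes and the class contrast did not separate the pairs. With contacts under 20 kb left out the values were 45.6%, 56.4%, 44.3% and 45.6% in class 1 and 31.2%, 42.8%, 29.9% and 31.9% in class 2, which put cell 5 with cells 7 and 9 in both classes.

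The same gradient appeared in windows. The windows were ordered by class 1 content and cut into 4 groups of like size. Over the cis ends of a group together, cell 5 had a local share of 43.8% in the group with the least class 1 and of 54.9% in that with the most. The same ends of the range were 53.3% and 61.8% for cell 10, 41.4% and 51.9% for cell 7, and 42.0% and 53.1% for cell 9. Windows in which both cells 5 and 10 lay above numbered 24 of 62, 15 of 61, 28 of 61 and 21 of 61 over these groups, without an order. Cell 10 was the highest in each group, and where class 1 was scarcest its local share was about as high as that of cells 7 and 9 where class 1 was richest.

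**Figure D3:**
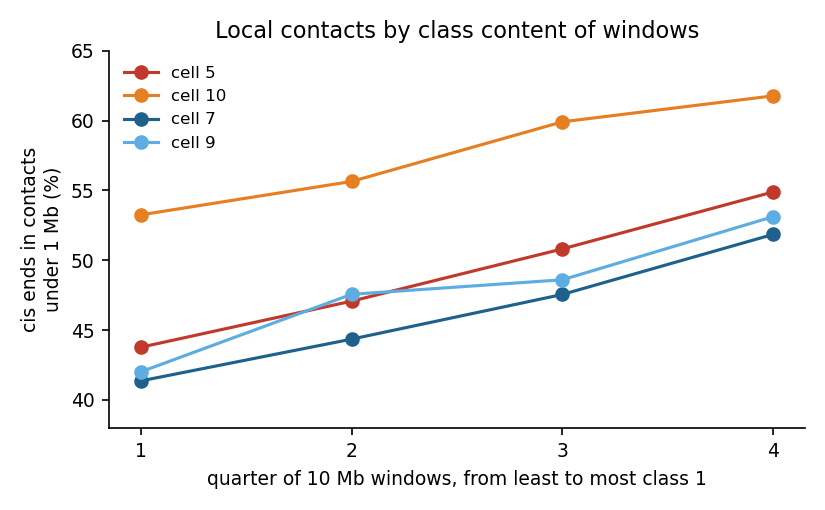
Share of all cis ends in contacts under 1 Mb (percent, y axis from 38 to 65) in 4 groups of the 245 windows of 10 Mb, ordered from least to most class 1 (x axis), 1 line for each of cells 5, 10, 7 and 9. All 4 lines rise with class 1 content, and that of cell 10 runs above the others from 53.3% to 61.8%.

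The 4 cells also differed in how many ends each class gave. Class 1 held 44.4% of autosomal ends in cell 5 and 47.1% in cell 10, the highest of the 9 cells, against 42.2% in cell 7 and 41.4% in cell 9, the lowest, where the 9 cells had 43.6% ± 1.63 (SD, n = 9). Ends of contacts under 1 Mb gave 50.3%, 51.3%, 47.75% and 46.6%, in the same order of the pairs, and ends of trans contacts gave 48.7%, 52.1%, 50.8% and 49.7%, in which the pairs overlapped. The part of these class shares in the local share was not tested, but the local share of cell 10 was higher within each class, as given above.

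Domains were called on the ensemble, which gave 3276 autosomal domains with a median length of 650 kb. Cell 10 had the most contacts inside domains, and at matched distance its share inside domains was close to that of the ensemble, as in the other 3 cells. Of the cis contacts of at least 20 kb, 28.9% [27.8 to 29.9], 36.7% [35.6 to 37.8], 27.7% [26.7 to 28.7] and 28.4% [27.4 to 29.4] had both ends in 1 domain. Contacts between neighbouring domains were also most frequent in cell 10, at 13.1% [12.4 to 13.9] against 9.19%, 8.66% and 9.77%. Of the contacts from 50 kb to 1 Mb, 71.2% [69.2 to 73.1], 69.6% [67.9 to 71.2], 71.2% [69.2 to 73.0] and 69.7% [67.8 to 71.6] lay inside 1 domain, while ensemble contacts of the same distances gave 71.3%, 69.8%, 71.4% and 69.4%. The excess over the ensemble was thus −0.12, −0.24, −0.30 and 0.34 points, all within 1 SD of the 9 cells, −0.07 ± 0.945 points (SD, n = 9). By distance, the excess of cell 10 was −0.69 points from 50 to 250 kb, −0.68 from 250 to 500 kb and 1.35 from 500 kb to 1 Mb, and that of cell 5 was 0.06, 1.20 and −2.11, with no common direction. Cells 7 and 9 had 0.54 and 1.02 points from 50 to 250 kb, both above cells 5 and 10, then −0.79 and 0.28, and −1.95 and −1.11 in the longest band, where the pairs overlapped. With domains called at an insulation window of 1 Mb, the excesses were 1.40, 2.14, 1.38 and 1.84 points, all of them above 0 and with the pairs overlapping.

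The preference for contacts within 1 class, taken over both classes, did not separate the pairs of cells either. Of the cis contacts over 10 Mb, 70.3% [68.7 to 72.0], 67.7% [65.7 to 69.6], 70.9% [69.4 to 72.4] and 68.1% [66.4 to 69.7] joined bins of 1 class. The excess over all bin pairs at the same chromosome and distance was 18.8, 16.2, 19.2 and 16.4 points, against 15.9 ± 3.36 points (SD, n = 9). Cell 5 stood beside cell 7, and cell 10 beside cell 9. In trans the excess was 18.6, 16.6, 20.3 and 14.0 points, against 15.1 ± 4.36 points (SD, n = 9), with cells 5 and 10 between cells 7 and 9. Split by class, the shares over 10 Mb were in the order of the pairs, mostly through cell 10. No expected value was set beside these shares. The class 1 share of all ends was also highest in cell 10 and lowest in cell 9 of the 9 cells. Its part in these shares was not tested. Of the cis contacts over 10 Mb, 20.3% [18.9 to 21.8], 22.6% [20.9 to 24.4], 20.2% [18.9 to 21.6] and 17.8% [16.5 to 19.2] joined class 1 to class 1, and 50.02% [48.2 to 51.8], 45.04% [42.96 to 47.1], 50.7% [49.03 to 52.3] and 50.3% [48.5 to 51.99] joined class 2 to class 2. The values of cells 5 and 7 differed by less than their intervals, and cell 10 had the lowest share between class 2 bins of the 4. Beyond 50 Mb the contacts of cell 10 stood further apart, with 28.9% [24.9 to 33.2] joining class 1 to class 1 and 37.6% [33.3 to 42.2] joining class 2 to class 2, the highest and the lowest value of the 9 cells. Cells 5, 7 and 9 had 21.7% [18.7 to 25.0], 24.3% [21.8 to 26.9] and 20.0% [17.5 to 22.7] between class 1 bins, and 49.6% [45.9 to 53.4], 48.2% [45.3 to 51.2] and 45.4% [42.2 to 48.7] between class 2 bins. In both classes the pairs of cells overlapped at this distance.

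**Figure D4:**
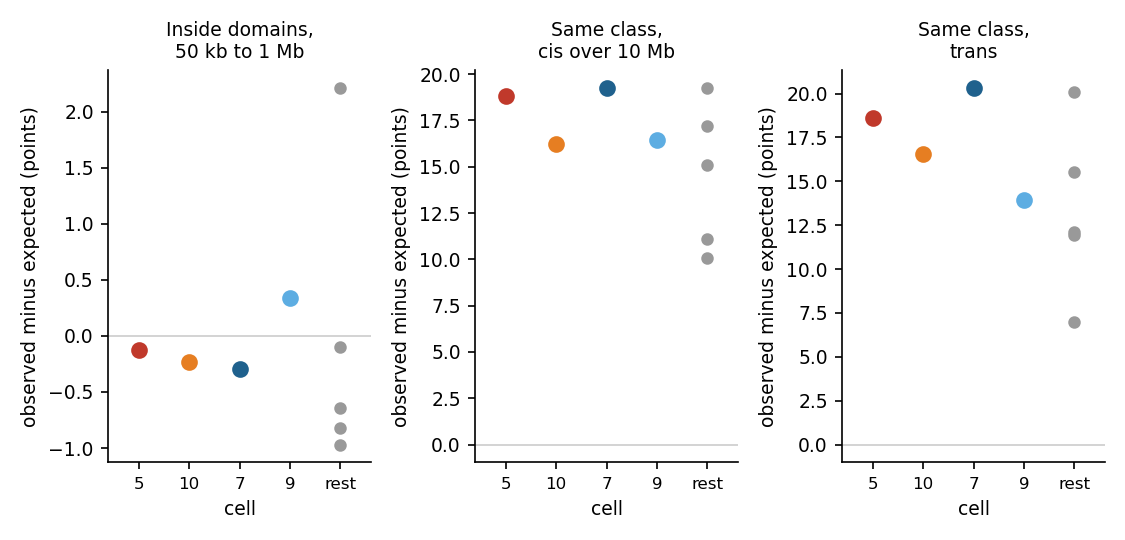
Observed minus expected share (points) for cells 5, 10, 7 and 9 and the other Bgl II cells, labelled rest, in separate panels for domains at matched distance, cis class pairing and trans class pairing; each point is 1 cell. The 4 cells lie within 0.34 points of 0 in the first panel and at 14.0 to 20.3 points in the class panels, with cells 5 and 10 not separated from cells 7 and 9.

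Trans contacts, which the choice of cells did not use, were more frequent in cells 5 and 10. They made up 18.9% [18.2 to 19.7] and 17.96% [17.3 to 18.7] of autosomal contacts, against 13.6% [13.0 to 14.3] and 15.2% [14.6 to 15.9] in cells 7 and 9. The intervals of the pairs did not overlap, but the gap was smaller than the spread of the 9 cells, 17.4% ± 6.50 (SD, n = 9). These intervals treat contacts as separate, though some trans contacts lay close together, and so are too narrow. With trans contacts within 1 Mb of each other counted once, the shares were 17.5%, 17.0%, 13.0% and 14.9%. The pattern of few very long cis contacts with more trans contacts was not the order of the other cells: cells 2, 3 and 4 had 24.3% to 25.2% trans and 10.97% to 15.5% beyond 50 Mb, and cells 1 and 6 had 6.75% and 10.6% trans and 4.25% and 7.22% beyond 50 Mb. On X the share of ends in trans contacts was 20.3%, 17.3%, 15.05% and 15.9%.

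Both cells 5 and 10 lay above both cells 7 and 9 in trans share on 11 of 19 chromosomes (57.9%), and no chromosome had the opposite order. Cell 5 lay above both on 13 and cell 10 on 16, and without cell 9 the count for both was 17. With trans contacts within 1 Mb of each other counted once, the count was 9. The narrowest gaps among the 11 were 0.06, 0.19 and 0.40 points, on chromosomes 18, 1 and 6. Chromosome 8 had the widest gap, with 20.9% and 18.2% of its ends in trans in cells 5 and 10 against 11.98% and 12.4% in cells 7 and 9. Chromosome 9, with the widest gap in local share, was next with 26.9%, 21.6%, 15.4% and 16.4%, and chromosome 7 followed with 19.2%, 19.2%, 11.3% and 14.1%. Chromosome 9 thus had both a higher local share and a higher trans share in cells 5 and 10. In number, its cis contacts under 1 Mb were 232, 253, 217 and 240 in cells 5, 10, 7 and 9. In cell 5, 78 of its 293 trans ends lay in contacts with chromosome 6. The lowest trans share lay on chromosome 1 in cell 5 (13.0%), on chromosome 4 in cells 10 (13.2%) and 9 (11.7%) and on chromosome 3 in cell 7 (10.3%), all of them among the longest chromosomes. Chromosomes with a higher local share also had a higher trans share in each cell, at r = 0.496 (rho = 0.29), 0.60 (rho = 0.68), 0.66 (rho = 0.62) and 0.67 (rho = 0.41) over 19 chromosomes, and both measures fell with length, which these points share.

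**Figure D5:**
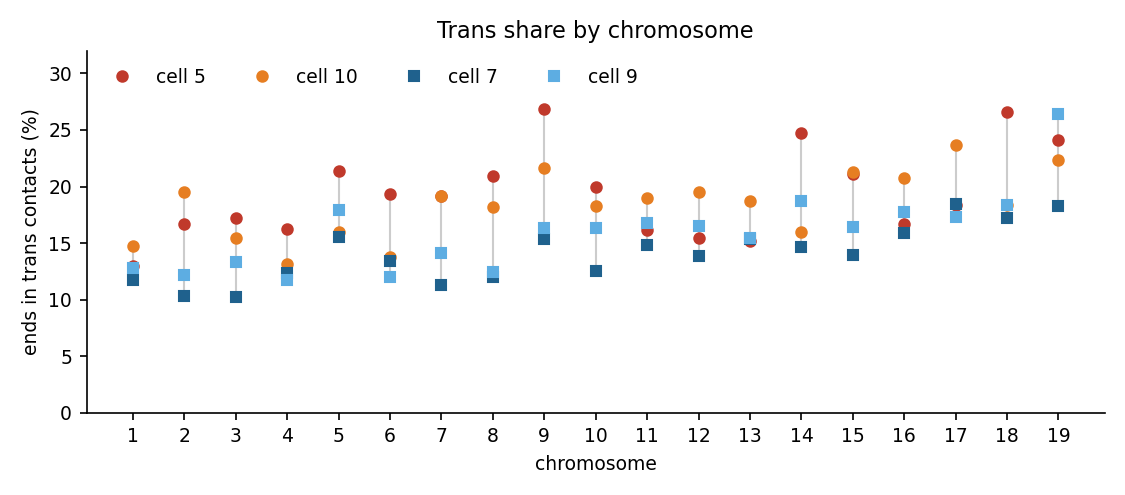
Share of a chromosome's ends that lie in trans contacts (percent, y axis from 0) on chromosomes 1 to 19 (x axis), 1 point for each of cells 5 and 10 (circles) and 7 and 9 (squares) at equal depth; grey lines join the 4 values of a chromosome. Both circles lie above both squares on 11 chromosomes, with the widest gaps on chromosomes 8, 9 and 7.

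Class 1 ends were in trans contacts more often than class 2 ends in all 4 cells, but by less in cells 5 and 10. Of class 1 ends, 20.7%, 19.9%, 16.4% and 18.3% were in trans contacts, and of class 2 ends, 17.4%, 16.25%, 11.6% and 13.1%. The difference was 3.32 and 3.61 points in cells 5 and 10, the lowest of the 9 cells, against 4.82 and 5.16 points in cells 7 and 9, where the 9 cells had 4.97 ± 1.59 points (SD, n = 9). The gap between the pairs in trans share was thus larger at class 2 ends than at class 1 ends.

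The chromosome pairs that led the trans contacts differed between cells, and some also had high raw counts in another cell. Of 171 autosome pairs, 165, 168, 154 and 171 had at least 1 contact. Cell 5 was the most uneven: 28 pairs held more than 2 times the count expected from its own ends per chromosome, against 14, 20 and 14, and its 10 fullest pairs held 27.9% of its trans contacts against 16.2%, 17.7% and 16.6%. Its leading pair was chromosomes 6 and 9, with 78 contacts where 20.6 were expected and 4, 6 and 8 in cells 10, 7 and 9. Chromosomes 1 and 2 followed, with 73 contacts where 18.9 were expected and 12, 9 and 27 in the same other cells. The leading pairs of cell 10 were chromosomes 13 and 17, with 35 contacts (expected 9.67) and 2, 9 and 22 in cells 5, 7 and 9, and chromosomes 1 and 11, with 40 contacts (expected 18.2) and 39, 13 and 15 in those cells. Cell 7 had 44 contacts between chromosomes 2 and 9 (expected 11.6), where cells 5, 10 and 9 had 6, 24 and 7, and 30 between chromosomes 1 and 4 (expected 11.3), where they had 3, 27 and 7. Cell 9 had 30 between chromosomes 6 and 16 (expected 7.93), where cells 5, 10 and 7 had 7, 2 and 1, and 28 between chromosomes 3 and 18 (expected 8.26), where they had 8, 5 and 5. By raw count, cell 10 thus had many contacts on the leading pairs of cell 7. Cells 5 and 9 each had many on 1 leading pair of cell 10. Counts expected from the ends of these other cells were not set beside theirs, so an excess there is not shown.

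Trans contacts with a near neighbour made up the largest share in cell 5, while cell 10 lay slightly below the mean of the 9 cells. The share of trans contacts with another one within 1 Mb at both ends was 17.1% [15.5 to 18.7] and 12.2% [10.9 to 13.8], against 10.9% [9.44 to 12.6] and 5.00% [4.05 to 6.16] in cells 7 and 9. Cell 5 was the highest and cell 9 the lowest of the 9 cells, at 12.9% ± 3.77 (SD, n = 9), and the intervals of cells 10 and 7 overlapped. A contact and its neighbour are both counted, so these intervals treat linked contacts as separate and are too narrow. This share rises with the number of trans contacts in a cell, which were 2058, 1946, 1483 and 1660. The part of that number in it was not tested. Among cis contacts beyond 50 Mb the same share was 17.2%, 21.1%, 15.6% and 11.5%, so the fewer long contacts of cells 5 and 10 lay no more singly than those of cells 7 and 9.

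As a value on the libraries themselves, fragment ends with more than 1 partner made up 0.881% [0.765 to 1.02] of ends in cell 5, 1.37% [1.22 to 1.53] in cell 10, 1.26% [1.12 to 1.42] in cell 7 and 1.34% [1.20 to 1.503] in cell 9 after thinning, and 1.51%, 1.37%, 1.46% and 1.41% in the full files. Cell 5 kept 57.6% of its contacts in thinning and cell 10 all of them, and thinning lowers this share, so it did not part the pairs in the full files.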

How the data were processed

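The deposited files list, per the file headers, 1 contact a line, with a chromosome and a position in bp for both ends. They hold no read counts. Per the submitters' processing notes, positions refer to mm9. For the aligner and read filters nothing was given in the sources used. The 4 cells, the measures and the alternatives were chosen with earlier results of these data known.

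Each Bgl II cell was thinned to 11156 contacts (seed 1), and shares were computed on chromosomes 1 to 19. Domains were minima of insulation on the ensemble (50 kb bins, 500 kb window, prominence 0.1, 50 iterations of balancing, bins under 0.2 of the median row sum left out). Classes came from the leading eigenvector of each chromosome's correlation matrix (ensemble, cis, 1 Mb), with its sign set by the density of fragment ends, and 0 of 190 chromosome pairs had opposite signs in ensemble trans contacts. Expected values were matched on distance for domains, on chromosome and distance for cis classes, and on each chromosome's class shares in trans. Counts of expected trans contacts came from the cell's own ends per chromosome. The scripts were checked on simulated data.

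The chromosomes named were the 3 with the widest gap between the pairs, those with the opposite order and each cell's highest and lowest. The windows named were the 5 widest gaps above and 3 below, and 2 chromosome pairs were named per cell. Values of a few other chromosomes are set beside these for contrast. The alternatives left out thinning, contacts under 20 kb, 1 cell at a time or shared ends, and changed seeds, distance limits, windows, domains and classes. All work used Python 3.11.15 with pandas 2.3.3, numpy 2.4.6 and scipy 1.17.1, and plots were drawn with matplotlib 3.10.9.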

Additional observations from a re-analysis of the deposited data

Results flagged for a closer look

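In 69 sets of 9 Bgl II cell values, 7 had a highest or lowest cell whose gap to the next, divided by the whole range, passed Dixon's 95% critical value for 9 samples. Chance flags about 1 set in 20, but many sets are overlapping measures of the same cells, so their flags are not separate results. Among the 4 cells, cell 10 stood apart with 6.09% of cis contacts from 1 to 2 Mb, where the next cell had 4.78%. Cell 10 also stood apart with 13.1% of its cis contacts of at least 20 kb between neighbouring domains, where the next had 9.77%. Both values depend on the distances of autosomal cis contacts, by which cell 10 was chosen. They describe the choice and cannot be set against that chance rate. The other values came from cells outside the 4. Cell 4 had a median cis distance of 7.77 Mb against 3.298 Mb in the next cell, and a trans share 8.78 points higher at class 1 ends than at class 2 ends, against 5.27 points. Cell 3 had a within-domain excess of 2.21 points against 0.34, and from 250 to 500 kb a share inside 1 domain of 70.7% against 66.9%, an excess of 4.95 points against 1.20.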

How the results depend on the processing

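Of 278 values under 22 alternative settings of 39 results, 245 moved by less than 1 SD of the 9 cells or, for counts, stayed within 1.5 times, and 33 moved. Without contacts under 20 kb the share under 1 Mb was 37.2%, 48.9%, 35.7% and 37.2% in cells 5, 10, 7 and 9. Windows of 5 Mb gave 133 above and 32 below, and windows of 20 Mb gave 52 above and 4 below. The number of windows changes with their size and was not recorded for these sizes. These counts therefore cannot be read against those of the 10 Mb windows. An insulation window of 250 kb gave cell 5 a within-domain excess of −2.40 points and cell 7 one of −2.25. It was 1.40, 2.14, 1.38 and 1.84 points in the 4 cells with 1 Mb, and −1.19 in cell 5 and 0.84 in cell 10 without balancing. With classes at 500 kb, the cis same-class excess of cell 5 was 22.7 points, and the class difference in local share was 16.0 points in cell 5 and 14.7 in cell 9. Without balancing that difference was 11.8 points in cell 9. Expected values from ensemble contacts gave cis same-class excesses of 8.58, 5.96, 8.89 and 5.99 points. The cause of these shifts was not tested.

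Leaving out 1 of the 4 cells gave 10 to 19 chromosomes for the local share (19 without cell 5), 14 to 17 beyond 50 Mb, 15 to 18 beyond 0.5 of the length, 11 to 19 for the median distance (19 without cell 5) and 12 to 17 for the trans share. It gave 104 to 190 windows above and 15 to 67 below. With 1 cell fewer, fewer values have to be in order, so these counts can only be equal or higher.

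Values per chromosome and per window rest on few contacts. The cells are single cells with 1 library each, so a difference between cells and a difference between libraries cannot be told apart.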
